A study of Sus scrofa with 6 samples.

Results

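The 4 ERBB receptors (EGFR, ERBB2, ERBB3 and ERBB4), 5 ligands of the EGF family (EREG, AREG, HBEGF, TGFA and NRG1) and the receptor inhibitor ERRFI1 were followed in porcine embryonic fibroblasts (PEFs) and in the porcine induced pluripotent stem cells (piPSCs) made from them. These 10 genes were taken by symbol, as the members of 1 signalling family, and all 10 are among the 18007 genes of the deposited table. The PEF lines PEF5, PEF7 and PEF8 were grown from the ear tips of embryos at day 90 of gestation, which shared a Large White sire (named Longwhite in the labels) and a Meishan dam. The lines piPSC5, piPSC7 and piPSC8 were derived from the same-numbered PEF line with lentiviruses that carry Oct4, Sox2, Klf4 and cMyc under a doxycycline-dependent promoter. They grew in LF2i medium on feeder cells from mouse embryos, and whether a piPSC line is 1 colony or several is not given in the sources used here. Each line gave 1 library, so that 3 PEF libraries stand against 3 piPSC libraries, and p-values measure the spread between lines that share their parents.

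ERBB receptors are tyrosine kinases of the cell surface that signal in pairs. EGFR binds EGF, TGFA, AREG, EREG and HBEGF, while ERBB3 and ERBB4 bind neuregulins such as NRG1. ERBB2 has no known ligand and serves as a partner of the other receptors, and ERBB3 has little kinase activity of its own. The ligands are made as membrane proteins that proteases of the ADAM family cut free, and active receptors drive the RAS and MAP kinase and the PI3 kinase pathways. ERRFI1, also called MIG6, is induced by receptor activity and blocks the kinase domain. Fibroblasts are known to respond to EGF, and EREG and AREG are ligands that cultured cells often make for themselves.

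Values are FPKM, that is fragments scaled by the length of the gene model and by the depth of the library. The fragments behind a value were recovered as whole numbers, with the shortest model length that makes all libraries of a gene whole. For genes with very few fragments, such as TGFA, the true counts may be whole multiples of those given. The libraries held 11010629 to 17836510 fragments. Where a gene had no fragment, its true count may be as high as 3, a limit for counting error only. The study describes its PEF lines as male, but DDX3Y, a gene of chromosome Y, had 3439 fragments in PEF8, 4207 in piPSC8 and 0 in the other 4 libraries. Results were therefore also computed for lines 5 and 7 only. Of 11 fibroblast markers all 11 were lower in piPSCs, and their summed level was 6034 to 8651 FPKM in PEFs and 234 to 431 FPKM in piPSCs, with none of the markers at 0. Of 10 pluripotency markers 6 were found, with a summed level of 0.0247 to 0.341 FPKM in PEFs and 2.87 to 9.03 FPKM in piPSCs. NANOG, SALL4 and ESRRB were at or near 0 in every piPSC library, and SOX2 and LIN28B had higher levels than in PEFs without passing the test (limma adjusted p = 0.0626 and 0.0667). Summed levels in PEFs and piPSCs ran from 11.7 to 37.4 and from 0.789 to 9.62 FPKM for simple epithelium (CDH1 and EPCAM near 0), from 3.04 to 3.35 and from 4.74 to 9.12 for keratinocytes, from 2.44 to 7.54 and from 4.26 to 4.86 for Schwann cells and melanocytes, from 0.0400 to 0.836 and from 0.956 to 30.9 for cartilage (HAPLN1 alone held 30.8 FPKM in piPSC5, and the other 4 markers had at most 0.215 FPKM in any library), and from 1.39 to 5.10 and from 2.09 to 3.06 for endothelial and immune cells. Of the 9 tested genes of these lists and the pluripotency list, limma called 1, CLDN6, which is lower in piPSCs and not called once the line entered the fit as a replicate block. The part of cell makeup in the results that follow was not tested, and in bulk samples fewer cells of a type and less RNA per cell cannot be told apart.

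EGFR, its ligands EREG, AREG and HBEGF, and its inhibitor ERRFI1 fell in piPSCs, while ERBB2, ERBB4 and NRG1 were tested and not called. Of the 10 genes, 8 passed the filter of a mean of 0.5 FPKM and were tested with limma on log2(FPKM + 1), and ERBB3 and TGFA did not pass it. Of the 8, limma called 5 lower and 0 higher with a Benjamini-Hochberg adjusted p under 0.05 and a change of 2-fold or more. Of all 12428 genes tested, 16.7% were called lower and 20.2% higher. Among the genes not called, ERBB4 was the 1 with a higher level and an unadjusted p under 0.05, and voom on the fragments called it higher. The 5 called genes did not overlap between the groups, as was the case for 26.8% of all tested genes in that direction, and ERBB4 did not overlap in the opposite direction (37.3%). The median difference of the 8 genes was -2.81 on the log2 scale, beside 0.20 for all tested genes. Without line 8, the same 5 genes were called lower.

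**Figure D1:**
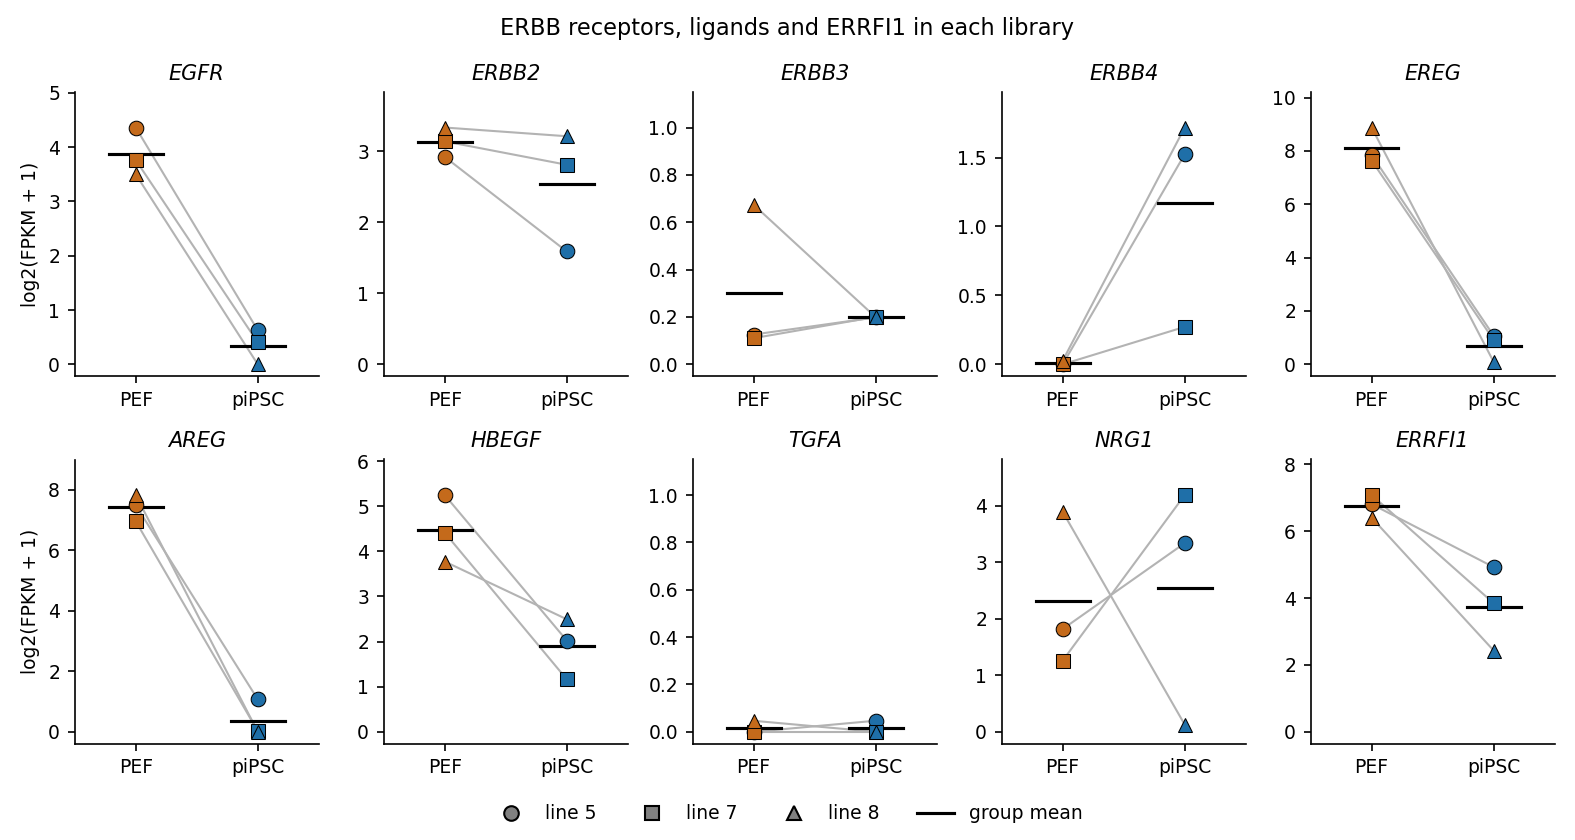
Level of each of the 10 genes as log2(FPKM + 1), with 1 panel a gene and its own axis range, in the 3 PEF libraries (orange) and the 3 piPSC libraries (blue). Grey lines join the libraries of a line and black bars are group means. EGFR, EREG, AREG, HBEGF and ERRFI1 lie lower in every piPSC library than in any PEF library, while the lines of NRG1 cross.

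EGFR (ENSSSCG00000022126, chromosome 9 of Sscrofa11.1 from 139301586 to 139475037, + strand) was the most abundant receptor of every PEF library. Its level was 19.5, 12.6 and 10.3 FPKM in PEF5, PEF7 and PEF8, and 0.544, 0.322 and 0 FPKM in piPSC5, piPSC7 and piPSC8. These values rest on 2000, 1205 and 896 PEF fragments and on 47, 22 and 0 piPSC fragments. The groups did not overlap, and piPSC8 had no EGFR fragment at all. The means were 14.1 ± 4.81 and 0.289 ± 0.274 FPKM (SD, n = 3), a 48.9-fold difference. On the log2(FPKM + 1) scale, which understates the change of low values, EGFR fell by 3.53 (SE 0.30, limma adjusted p = 0.000416). The log2 ratios within lines 5, 7 and 8 were -3.73, -3.36 and -3.50. Since the piPSC values lie under the pseudocount of 1, these ratios mostly follow the PEF levels and do not compare the size of the fall between lines.

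ERBB2 (ENSSSCG00000017497, chromosome 12 from 22591621 to 22621332, - strand), the receptor without a ligand, kept a level of several FPKM in 5 of the 6 libraries. It had 6.56, 7.79 and 9.06 FPKM in PEF5, PEF7 and PEF8, and 2.00, 5.99 and 8.24 in piPSC5, piPSC7 and piPSC8. The groups overlapped, since piPSC8 lay above PEF5 and PEF7, and piPSC5 was the low library. The difference was -0.59 on the log2 scale with a 95% confidence interval from -1.60 to 0.41 (limma adjusted p = 0.267). It was -0.12 without piPSC5 and -0.93 without piPSC8, and was called in neither fit. The interval holds both no change and a fall of more than 2-fold.

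ERBB3 (ENSSSCG00000020725, chromosome 5 from 21474625 to 21496279, + strand), the neuregulin receptor with a weak kinase, was near its detection limit and was not tested. It had 0.0911, 0.0796 and 0.595 FPKM in PEF5, PEF7 and PEF8, from 11, 9 and 61 fragments. In piPSC5, piPSC7 and piPSC8 it had 0.147, 0.149 and 0.148 FPKM, from 15, 12 and 11 fragments. PEF8 was the high library, and the piPSC libraries were close to each other and lay between PEF8 and the other PEF libraries. In PEF8 the Schwann cell factor SOX10 was high as well, with 70 fragments, against at most 4 in any other library. The list of Schwann cell and melanocyte markers, of which 7 of 8 were found, summed to 7.54 FPKM in PEF8 and to at most 2.57 FPKM in the other PEF libraries, with TYR at 0 in all 3 PEF libraries. Whether such cells account for the ERBB3 fragments of PEF8 was not tested.

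ERBB4 (ENSSSCG00000016160, chromosome 15 from 113974697 to 114696336, - strand), a neuregulin receptor with an active kinase, was almost absent from PEFs and present in piPSCs. Its level was 0, 0 and 0.0181 FPKM in PEF5, PEF7 and PEF8, and 1.87, 0.207 and 2.29 FPKM in piPSC5, piPSC7 and piPSC8. The fragments were 0, 0 and 1 in PEFs and 103, 9 and 92 in piPSCs. The groups did not overlap, but piPSC7 was far below the other 2 piPSC libraries. Taken over the summed libraries, the rate of fragments was 267 times higher in piPSCs, with a 95% exact counting interval from 47.4 to 10602 that leaves out the spread between lines. With that spread, the difference of 1.16 on the log2 scale (95% confidence interval 0.19 to 2.14) did not pass the test (limma adjusted p = 0.0506). Without piPSC7 the difference was 1.61 and was called (limma adjusted p = 0.00499), and for lines 5 and 7 only it was 0.90 and was not called (limma adjusted p = 0.168). The gene model of the table begins 400648 bp downstream of the start that RefSeq gives, so the values cover 3651 bp of exons and not the whole transcript.

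Since FPKM is scaled by length, the receptors of a library can be set side by side. EGFR made up 74.6%, 61.5% and 51.6% of the summed receptor FPKM of PEF5, PEF7 and PEF8, and 11.9%, 4.83% and 0% in piPSC5, piPSC7 and piPSC8. The mean share was 62.6% ± 11.5 in PEFs and 5.58% ± 5.99 in piPSCs (SD, n = 3) without overlap, and the two-sided exact permutation test gave p = 0.1, the smallest p that 3 against 3 libraries allow. In piPSCs the leading receptor was ERBB2, with 43.9%, 89.8% and 77.2%, against 25.0%, 38.1% and 45.3% in PEFs. ERBB4 took 41.0%, 3.11% and 21.4% of the piPSC sums and at most 0.0905% of a PEF sum. The ERBB3 share was 1.24% ± 1.51 in PEFs and 2.28% ± 0.920 in piPSCs (SD, n = 3, exact permutation test p = 0.3). The sum itself was 26.2, 20.4 and 19.98 FPKM in PEFs and 4.57, 6.67 and 10.7 FPKM in piPSCs, so the shares of piPSCs are shares of a smaller total. The order of receptors was therefore EGFR, ERBB2, ERBB3 and ERBB4 in each PEF library, and in each piPSC library ERBB2 came first, while ERBB4 came second in piPSC5 and piPSC8 and EGFR in piPSC7. The spread over lines is wide beside some steps of this order, with 14.1 ± 4.81 FPKM for EGFR and 7.80 ± 1.25 for ERBB2 in PEFs, and 1.46 ± 1.10 for ERBB4 and 0.289 ± 0.274 for EGFR in piPSCs (SD, n = 3). In piPSC5 ERBB2 led by little, with 2.00 FPKM (146 fragments) against 1.87 FPKM (103 fragments) for ERBB4, whose model is incomplete. In piPSC7 EGFR came before ERBB4 on 22 against 9 fragments.

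**Figure D2:**
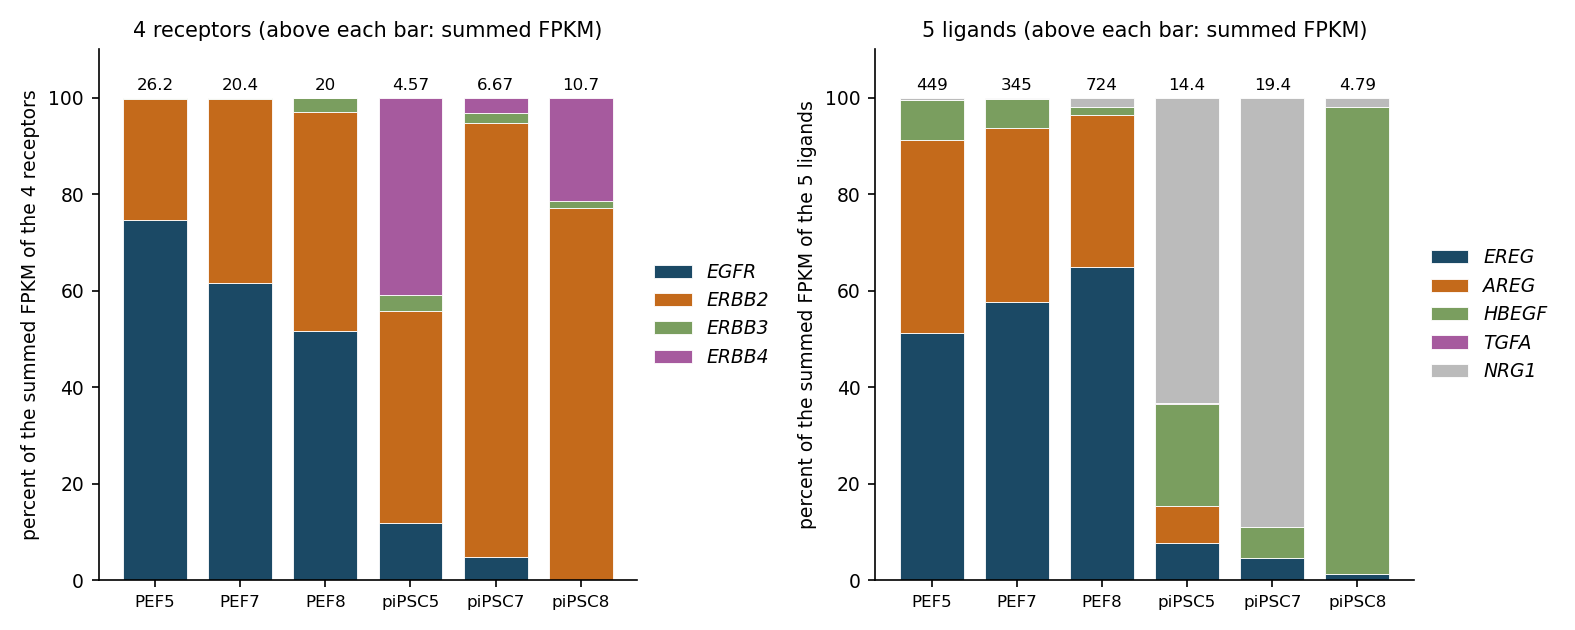
Percent of the summed FPKM of the 4 receptors (left) and of the 5 ligands (right) that belongs to each gene, with 1 bar a library and the summed FPKM printed above it. EGFR leads in the 3 PEF libraries and ERBB2 in the 3 piPSC libraries. EREG and AREG fill most of the ligand bars of PEFs, while NRG1 leads in piPSC5 and piPSC7 and HBEGF in piPSC8.

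EREG and AREG, ligands of EGFR, showed the largest differences of the 10 genes. EREG (ENSSSCG00000038185, chromosome 8 from 70351313 to 70372534, + strand) encodes epiregulin, a ligand that can activate EGFR and ERBB4. It had 230, 199 and 470 FPKM in PEF5, PEF7 and PEF8, and 1.10, 0.877 and 0.0618 FPKM in piPSC5, piPSC7 and piPSC8. In fragments, 18065, 14663 and 31422 stand against 73, 46 and 3. PEF8 had the highest EREG level of all libraries and piPSC8 the lowest, and no values overlapped. The means were 300 ± 149 and 0.679 ± 0.546 FPKM (SD, n = 3), and EREG fell by 7.44 on the log2(FPKM + 1) scale (SE 0.40, limma adjusted p = 0.000145).

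AREG (ENSSSCG00000008963, chromosome 8 from 70417919 to 70429494, + strand) encodes amphiregulin, an EGFR ligand that also binds heparin. It had 180, 124 and 227 FPKM in PEF5, PEF7 and PEF8, and 1.10, 0.0164 and 0 FPKM in piPSC5, piPSC7 and piPSC8. The fragments were 16384, 10607 and 17589 in PEFs and 85, 1 and 0 in piPSCs. Of the 86 AREG fragments in piPSCs, 85 thus came from piPSC5, the piPSC library that was also highest for EREG and EGFR. Of the 11 fibroblast markers, 8 had their highest piPSC level in piPSC5. The summed level of all 11 was 431 FPKM there, 379 in piPSC7 and 234 in piPSC8. VIM (208, 249 and 74.4 FPKM) and COL3A1 (94.2, 109 and 125 FPKM) made up the largest parts of these sums. Neither was highest in piPSC5. Whether fibroblast RNA accounts for the AREG fragments of piPSC5 was not tested. The means were 177 ± 51.5 and 0.373 ± 0.633 FPKM (SD, n = 3), and AREG fell by 7.07 on the log2(FPKM + 1) scale (SE 0.36, limma adjusted p = 0.000137). The count model voom, which adds less to low values, gave -9.32 for EREG, -11.33 for AREG and -6.85 for EGFR on the log2 scale, and called all of them (limma adjusted p at most 0.00637).

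**Figure D3:**
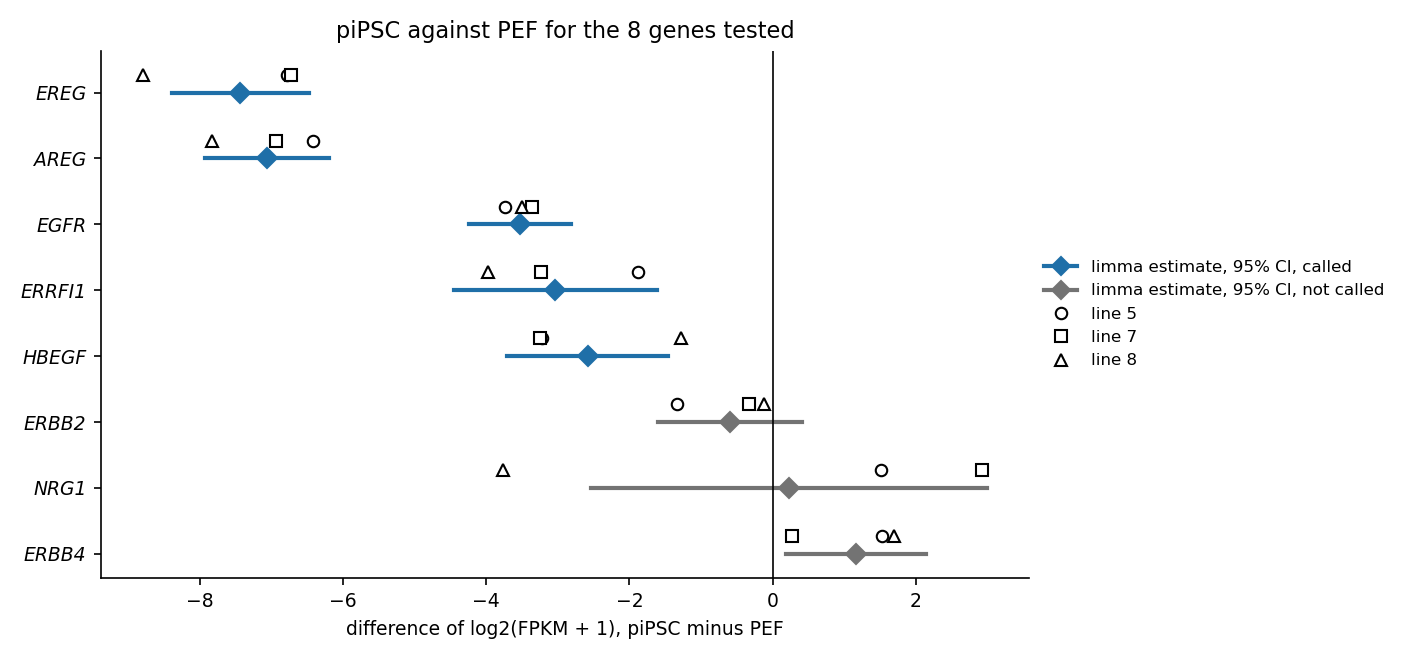
Difference of log2(FPKM + 1) between piPSCs and PEFs for the 8 genes tested. Diamonds are limma estimates and bars their 95% confidence intervals, in blue where the gene was called, and open symbols give the log2 ratio within each line. EREG and AREG lie near -7, EGFR, ERRFI1 and HBEGF between -3.53 and -2.58, and the intervals of ERBB2 and NRG1 include 0.

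The stretch just upstream of the start was read from the RefSeq sequence of Sscrofa11.1 for EREG, AREG and HBEGF, the called ligands, because EREG and AREG are neighbours that fell together. Their starts in the table lie within 3, 16 and 4 bp of the RefSeq starts. The 250 bases before each start are written 5′ to 3′ on the strand of the gene, and capitals mark matches on either strand to a GC box (GGGCGG) or a cyclic AMP response element (CRE, TGACGTCA). The windows are chr8:70351063-70351312 for EREG, chr8:70417669-70417918 for AREG and chr2:142115197-142115446 for HBEGF, which lies on the - strand.
EREG: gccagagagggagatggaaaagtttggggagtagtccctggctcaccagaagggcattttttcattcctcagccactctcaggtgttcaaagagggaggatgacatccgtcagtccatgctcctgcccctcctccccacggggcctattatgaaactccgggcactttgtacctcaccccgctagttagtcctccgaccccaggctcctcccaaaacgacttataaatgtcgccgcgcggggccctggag
AREG: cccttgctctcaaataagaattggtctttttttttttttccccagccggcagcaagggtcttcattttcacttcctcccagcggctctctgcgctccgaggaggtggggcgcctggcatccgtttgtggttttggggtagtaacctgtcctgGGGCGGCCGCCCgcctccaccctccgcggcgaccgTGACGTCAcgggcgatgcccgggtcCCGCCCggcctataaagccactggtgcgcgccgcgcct
HBEGF: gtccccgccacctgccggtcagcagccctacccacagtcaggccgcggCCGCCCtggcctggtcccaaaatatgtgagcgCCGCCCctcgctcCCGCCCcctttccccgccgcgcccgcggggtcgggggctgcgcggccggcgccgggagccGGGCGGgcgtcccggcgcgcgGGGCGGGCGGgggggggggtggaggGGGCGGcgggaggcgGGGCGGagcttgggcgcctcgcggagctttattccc

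The AREG window held 1 CRE, at bases 63 to 56 before the start, and 3 GC boxes. The EREG window held none of the 5 motifs searched, which also included the AP-1 site (TGANTCA, N for any base), the E-box (CACGTG) and the octamer (ATGCAAAT). The HBEGF window held 8 GC boxes, of which 2 overlap each other by 2 bases, and none of the other motifs. Of 17993 windows of the same length before the genes of the table, 1.63% held a CRE, 44.3% a GC box, 5.03% an AP-1 site, 6.31% an E-box and 1.13% an octamer. The GC content of the windows was 57.2% for EREG, 63.2% for AREG and 81.2% for HBEGF, beside a median of 58.0% over all windows. The other called genes have table starts 824 bp (EGFR) and 11457 bp (ERRFI1) from the RefSeq start, and their windows held 1 GC box and no motif, respectively. A match to letters does not show that a factor binds there.

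EREG and AREG lie 45.4 kb apart in a row of ligand genes that runs over 414 kb from EPGN to BTC. EPGN (epigen) and BTC (betacellulin) are further EGFR ligands, and BTC is listed in the table by its identifier only. BTC (ENSSSCG00000008965) had 4.72, 4.51 and 3.03 FPKM in PEF5, PEF7 and PEF8 and 0.0268, 0.136 and 0.0367 FPKM in piPSC5, piPSC7 and piPSC8, and it fell by 2.24 (SE 0.23, limma adjusted p = 0.000729). EPGN (ENSSSCG00000040736) had 1.01, 0.690 and 1.12 FPKM in PEFs and 0.148, 0.0170 and 0.0367 FPKM in piPSCs. Its difference of -0.86 had a limma adjusted p of 0.0190 but was under 2-fold on the log2(FPKM + 1) scale, so it was not called. It was called lower with voom (-3.998, limma adjusted p = 0.00531), with a pseudocount of 0.1 (-2.69) and with equal sums (-1.68). EPGN overlaps MTHFD2L on the same strand over 1853 bp, and how fragments of the overlap were counted is not given in the sources used here. All 4 ligand genes of the row were lower in every piPSC library than in any PEF library, as were 26.8% of all tested genes. Upstream of them, the chemokine genes CXCL8, AMCF-II and CXCL2 were called lower too, with differences of -10.48, -10.09 and -6.41. These chemokine genes are alike in sequence, and how fragments that fit several of them were counted is not given either. The model of CXCL2 spans that of ENSSSCG00000008954, which was called lower as well (-4.81), and the same limit holds for their overlap. PPBP, which also lies there, was under the filter and was not tested. The genes that flank the ligand row were not called, with a difference of -0.09 for MTHFD2L (limma adjusted p = 0.799) and 1.56 for PARM1 (limma adjusted p = 0.199). MTHFD2L had only 0.752 to 1.05 FPKM in PEFs, from 12 to 17 fragments, and 0.281 to 1.17 FPKM in piPSCs. From that level even a fall to 0 stays under 2-fold on the log2(FPKM + 1) scale. Its missing call alone therefore does not mark an edge of the lower genes. The values of MTHFD2L overlapped between the groups, with means of 0.873 FPKM in PEFs and 0.800 FPKM in piPSCs. Those of EPGN, with means of 0.940 and 0.0672 FPKM, did not overlap.

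**Figure D4:**
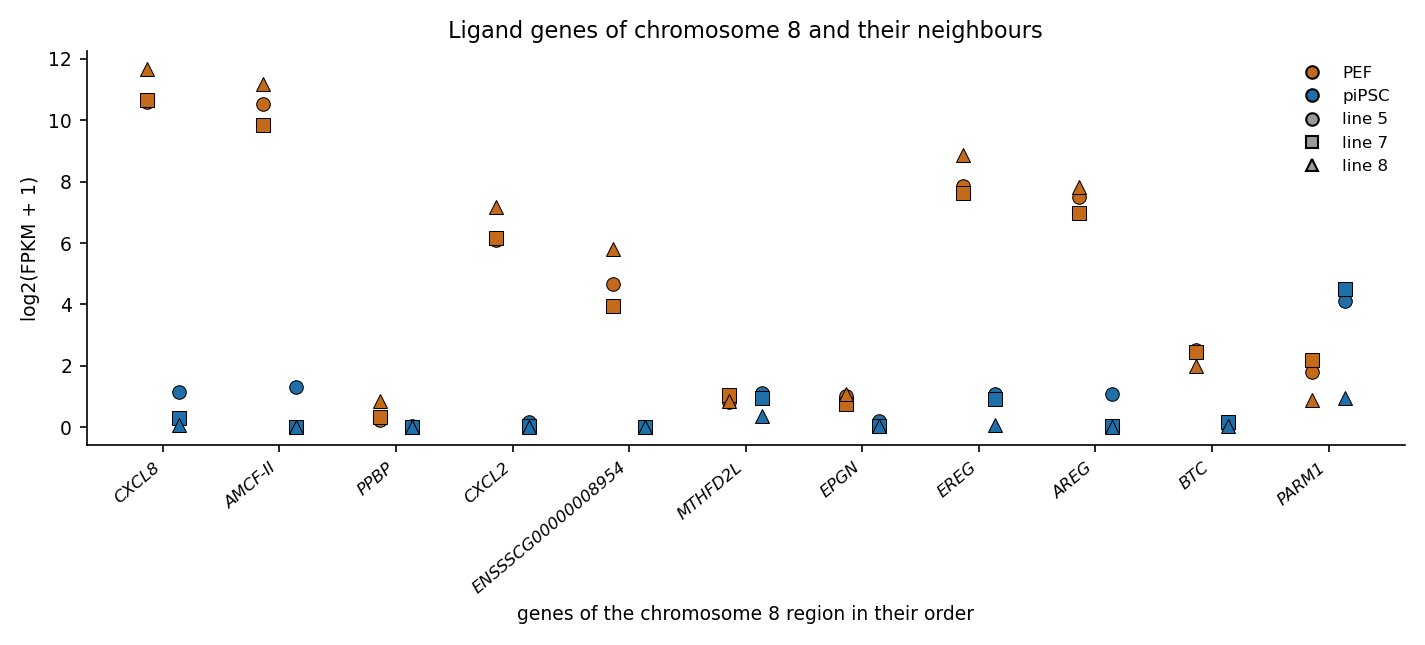
Level as log2(FPKM + 1) of the 11 table genes of the chromosome 8 region in their order along the chromosome, with equal spacing, in PEF libraries (orange) and piPSC libraries (blue); symbols give the line. EPGN, EREG, AREG and BTC are lower in all piPSC libraries than in any PEF library, as are 26.8% of all tested genes. MTHFD2L before them and PARM1 after them have values that overlap between the groups.

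HBEGF (ENSSSCG00000014362, chromosome 2 from 142102458 to 142115196, - strand) encodes heparin-binding EGF-like growth factor, a ligand of EGFR and ERBB4. It had 37.0, 20.3 and 12.7 FPKM in PEF5, PEF7 and PEF8, and 3.06, 1.24 and 4.64 FPKM in piPSC5, piPSC7 and piPSC8. The groups did not overlap, but PEF8 was the lowest PEF library and piPSC8 the highest piPSC library. The means were 23.3 ± 12.4 and 2.98 ± 1.70 FPKM (SD, n = 3), and HBEGF fell by 2.58 (SE 0.47, limma adjusted p = 0.00498). The log2 ratios within lines 5, 7 and 8 were -3.22, -3.25 and -1.28, so that the fall in line 8 was the smallest of the lines. Unlike EREG and AREG, HBEGF kept over 1 FPKM in every piPSC library.

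TGFA (ENSSSCG00000008326, chromosome 3 from 71948146 to 72050468, + strand), which encodes transforming growth factor alpha, had 1 fragment in PEF8, 1 in piPSC5 and 0 in the other 4 libraries. It was not tested, and no fold is given.

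NRG1 (ENSSSCG00000015839, chromosome 15 from 52630687 to 52839027, - strand), the neuregulin that binds ERBB3 and ERBB4, was higher in piPSCs of lines 5 and 7 and lower in those of line 8. It had 2.52, 1.39 and 13.8 FPKM in PEF5, PEF7 and PEF8, and 9.10, 17.2 and 0.0918 FPKM in piPSC5, piPSC7 and piPSC8. The fragments were 178, 92 and 829 in PEFs and 542, 810 and 4 in piPSCs. PEF8 was the high PEF library and piPSC8 the low piPSC library, so the groups overlapped fully. The log2 ratios within lines 5, 7 and 8 were 1.52, 2.93 and -3.76, with 1 library a line and state and no test between lines. Over all lines the difference was 0.23 with a 95% confidence interval from -2.54 to 2.99 (limma adjusted p = 0.879). For lines 5 and 7 only it was 2.22 and was called (limma adjusted p = 0.0114), and leaving out single libraries moved it between -0.59 (without piPSC7) and 1.44 (without piPSC8). It turned negative also without PEF5 (-0.02), PEF7 (-0.30) or piPSC5 (-0.16), and without PEF8 it was 1.01. The table's model begins 848976 bp downstream of the RefSeq start, so transcripts that begin further upstream are covered in part only.

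The summed level of the 5 ligands was 449, 345 and 724 FPKM in PEF5, PEF7 and PEF8, and 14.4, 19.4 and 4.79 FPKM in piPSC5, piPSC7 and piPSC8. EREG and AREG together dominated the PEF sums, with shares of 51.2% and 40.02% in PEF5, 57.7% and 35.99% in PEF7, and 64.97% and 31.4% in PEF8. In piPSC5 and piPSC7 the neuregulin NRG1 led, with 63.2% and 89.0%, whereas in piPSC8 HBEGF made up 96.8%. Among these 5 ligands the piPSC lines thus differed in the leading one, while the PEF lines did not. NRG4, which is not among the 5, was listed at a higher FPKM than any of them in each piPSC library, on a model of only 342 bp. In fragments it had 188, 375 and 32 in piPSC5, piPSC7 and piPSC8. NRG1 had more in piPSC5 and piPSC7 (542 and 810), and HBEGF had more in piPSC8 (135).

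ERRFI1 (ENSSSCG00000035774, chromosome 6 from 68667656 to 68694086, - strand), the inhibitor of the receptor kinase, was abundant in PEFs and lower in piPSCs. It had 111, 135 and 83.9 FPKM in PEF5, PEF7 and PEF8, and 29.4, 13.4 and 4.39 FPKM in piPSC5, piPSC7 and piPSC8. The groups did not overlap, and piPSC8 was the lowest library. The means were 110 ± 25.5 and 15.7 ± 12.7 FPKM (SD, n = 3), and ERRFI1 fell by 3.03 (SE 0.59, limma adjusted p = 0.00644). The log2 ratios within lines 5, 7 and 8 were -1.89, -3.24 and -3.98, and the difference was -2.38 without piPSC8 and -3.63 without piPSC5. Unlike the ligands EREG and AREG, ERRFI1 kept 153 to 1401 fragments in the piPSC libraries.

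The rest of the receptor pathway was read from 5 fixed lists, of whose 91 genes 88 were found and 85 tested. Limma called 5 of them higher and 23 lower. Of all tested genes, 20.2% were called higher and 16.7% lower, and the counts of each list below are to be read beside these shares. Calls in the signal core and among the negative regulators were no more frequent than these shares in either direction. Among the other EGF-family ligands, NRG3 rose by 2.06 (SE 0.41, limma adjusted p = 0.00692) and BTC was the 1 called lower, with a median of 0.92 over 5 tested genes. NRG3, a ligand of ERBB4, had 3, 1 and 0 fragments in PEF5, PEF7 and PEF8 and 147, 190 and 39 in piPSC5, piPSC7 and piPSC8. EGF itself had 0, 0 and 1 PEF fragments and 173, 52 and 6 piPSC fragments, a difference of 0.92 (limma adjusted p = 0.101). Its rate over the summed libraries was 302 times higher in piPSCs, with a 95% exact counting interval from 53.8 to 11998 that leaves out the spread between lines. EGF was called higher with voom (6.28, limma adjusted p = 0.0144), without piPSC8 (1.31, limma adjusted p = 0.0190) and for lines 5 and 7 only (1.32, limma adjusted p = 0.0356). NRG4, on a model of 342 bp, had 5.74, 5.07 and 8.49 FPKM in PEFs and 36.5, 92.2 and 8.50 FPKM in piPSCs, with an adjusted p of 0.0549 in limma. It was called higher without piPSC8 (3.02, limma adjusted p = 0.00402) and for lines 5 and 7 only (3.21, limma adjusted p = 0.00689). The number of these ligands called higher was thus 3 in either of those fits. NRG2 had at most 3 fragments in a library. The values of EGF, NRG2, NRG4 and EPGN were known before these genes were singled out.

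Of the 10 genes that release ligands from the membrane, 5 were called lower and 0 higher, and 0 had a higher level at an unadjusted p under 0.05 in limma, nor did voom call any higher. Their median difference was -1.21. ADAM12, a metalloprotease that can shed HBEGF, fell by 3.62 (SE 0.29, limma adjusted p = 0.000343), from 18.1, 16.7 and 10.6 FPKM in PEF5, PEF7 and PEF8 to 0.680, 0.166 and 0.0672 FPKM in piPSC5, piPSC7 and piPSC8. RHBDL2, a rhomboid protease of the membrane, fell by 3.00 (SE 0.38, limma adjusted p = 0.00139). ADAM17, the main protease of AREG, EREG and TGFA, had 6.65 to 7.90 FPKM in PEFs and 4.70 to 9.60 FPKM in piPSCs and was not called (difference -0.18, limma adjusted p = 0.587). ADAM17 was named after its values were seen.

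Of 33 tested adaptors, kinases and factors of the signal core 2 were called higher and 4 lower, with a median of 0.03. GAB1, an adaptor of receptor kinases, rose by 1.24 (SE 0.30, limma adjusted p = 0.0138). STAT5A, a transcription factor downstream of ERBB4 and cytokine receptors, fell by 2.55 (SE 0.23, limma adjusted p = 0.000488), and the adaptor NCK2 fell by 2.12 (SE 0.47, limma adjusted p = 0.0104). The difference of GAB1 was under 2-fold when libraries were rescaled to the median ratio (0.99).

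Of 19 tested negative regulators of the receptors 1 was called higher and 3 lower, with a median of -0.16. The number called lower was 1 without PEF5, piPSC5 or piPSC8 and 4 without piPSC7. CBL, the ubiquitin ligase that marks active EGFR for breakdown, rose by 1.28 (SE 0.23, limma adjusted p = 0.00456), from 1.42 to 2.48 FPKM in PEFs to 4.91 to 6.77 FPKM in piPSCs. PTPN12, a tyrosine phosphatase, fell by 2.12 (SE 0.17, limma adjusted p = 0.000343) and DUSP5, a phosphatase of ERK kinases, by 1.65 (SE 0.45, limma adjusted p = 0.0211). SPRED1, an inhibitor of RAS signalling, fell by 1.01 (SE 0.35, limma adjusted p = 0.0474), and in the fit with a replicate block for the line it was not called (limma adjusted p = 0.0734). SPRED1 lost the call in 8 of 16 alternatives, with an adjusted p of up to 0.167 in limma and a difference of -0.71 without piPSC8. Leaving out 1 library ended the call of DUSP5 without PEF5, PEF7, piPSC5 or piPSC8, with adjusted p from 0.0516 to 0.0725 in limma.

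Genes that growth factors induce were mostly lower. Of 18 tested genes 10 were called lower and 1 higher, with a median of -1.46. PLAUR, the urokinase receptor, fell by 6.11 (SE 0.38, limma adjusted p = 0.000196), and IER3, an early response gene, fell by 5.93 (SE 0.39, limma adjusted p = 0.000217). EGR2, a zinc finger factor, rose by 2.00 (SE 0.55, limma adjusted p = 0.0228), and lost the call without PEF5, PEF8 or piPSC5 (limma adjusted p 0.0542 to 0.0703). FOS, FOSB and EGR1 were picked with their values in view. They had their highest level in line 7 both among PEFs and among piPSCs and were not called, with differences of 0.34, -0.11 and -0.11.

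**Figure D5:**
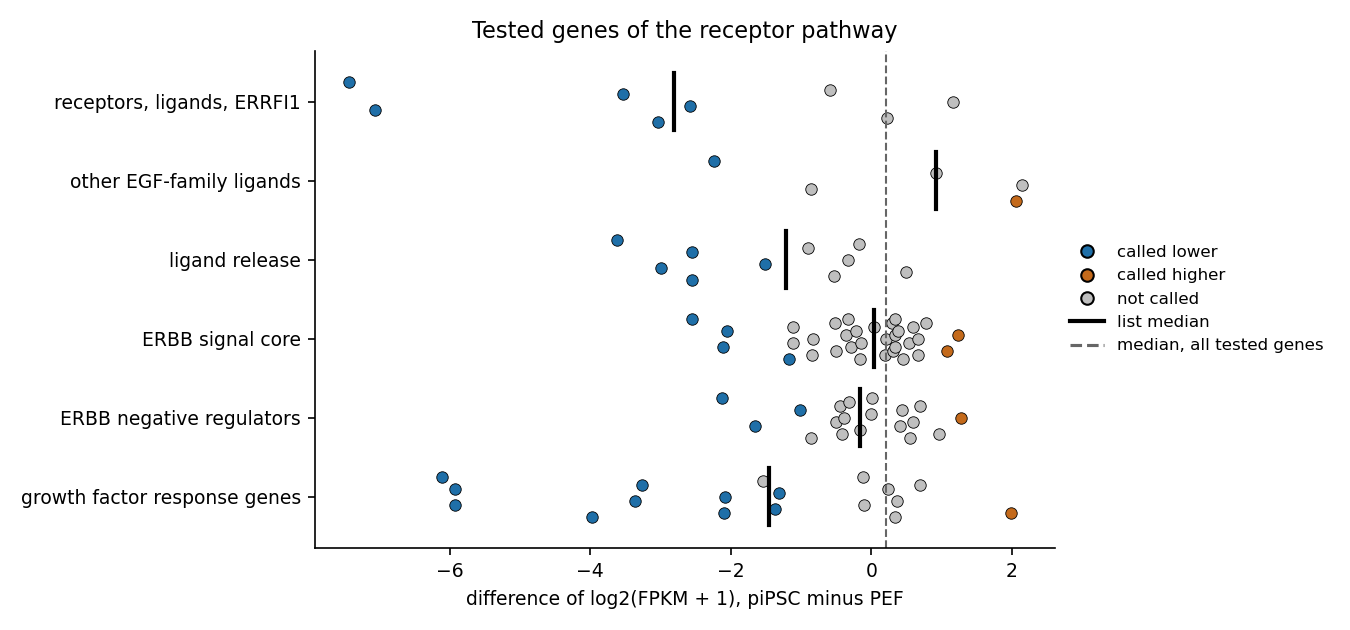
Difference of log2(FPKM + 1) between piPSCs and PEFs for the tested genes of each list, with 1 point a gene (blue called lower, orange called higher, grey not called), black bars at the list medians and a dashed line at the median of all tested genes, 0.20. The medians run from -2.81 for the receptors, ligands and ERRFI1 to 0.92 for the other EGF-family ligands.

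Likeness of pattern was measured over the 6 libraries as the root mean square difference of log2(FPKM + 1), after each gene was centred on its own mean. Among tested genes with a symbol, the nearest to EREG was its neighbour AREG (0.393), and EREG was the third nearest to AREG, after VSTM4 (0.346) and PCP4L1 (0.354). The second nearest to EREG was PCP4L1 (0.430), and the third was the chemokine gene CXCL2 of the same region (0.588). EGFR lay nearest to FAM114A1 (0.157), CSGALNACT1 (0.166) and ARHGEF40 (0.169), each a gene with high PEF and low piPSC levels. For HBEGF the nearest was MSRB3 (0.281). For ERRFI1 it was ETV4 (0.307), a target of the MAP kinase pathway that is also on the list of response genes. The next nearest to ERRFI1 were FLNA (0.328) and COL5A2 (0.369), which are not on that list. ERBB4 lay nearest to LMO3 (0.0249) and FABP7 (0.0424), and for genes this low small distances are easily reached. ERBB2 was nearest to ITPKB (0.175), and NRG1 to CD70 (0.458), whose distance was the largest of the nearest genes. ERBB3 and TGFA were below the filter and were not compared.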

How the data were processed

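RNA of 3 PEF and 3 piPSC lines was poly-T selected and read from both ends over 150 bp. Per the labels, the submitters' processing notes name Bowtie2 2.2.3, HISAT2 2.1.0, HTSeq 0.6.0 and Sscrofa11.1 without their roles. The values deposited by the authors are FPKM per gene, and how shared or overlapping fragments were counted, and whether strand was used, is not given in the sources used here. Positions in the table overlapped those of RefSeq on Sscrofa11.1 for 99.8% of 13209 shared symbols. Of 3375 genes listed by identifier, 902 were named from a reference table. Mouse feeder fragments could not be told apart from pig fragments in values per gene.

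The totals behind the FPKM steps were found per library, and fragments were recovered as whole numbers within 0.001 for all 18007 genes, which hold 98.93% to 99.34% of the totals. The groups were compared with limma 3.58.1 in R 4.3.3 (lmFit, eBayes with a trend) on log2(FPKM + 1), with two-sided p-values and without pairing. The study names an unpaired t test for its general statistics. Its own expression differences, however, were found between each piPSC line and its matched PEF line and then overlapped. Genes whose mean was at or above 0.5 FPKM were tested, 12428 in number. In simulated data for this comparison, with 12458 genes tested, 199 of 200 genes changed 4-fold were called (99.5%), and 9 others. The simulation gave every gene the same spread between libraries and put no differences between lines. It changed only genes well above the filter, and far fewer than were called in the data. The 99.5% is therefore a check of the procedure and not the power of this comparison. PEF and piPSC libraries of a number come from the same line, and their deviations from the group means correlated at 0.0800 to 0.0946, against -0.121 to 0.0553 for other numbers. The line as a replicate block, other pseudocounts, filters and scalings, voom on the fragments and leaving out each library were alternatives. Analysis of lines 5 and 7 only was added after the data were seen. Shares were compared by two-sided exact permutation tests in Python 3.11.15 with scipy 1.17.1, and windows were read with pysam 0.24.0.

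The 10 genes and all lists were chosen with earlier results of these data known. All 10 genes were named, and from each pathway list every called gene, or, where over 4 were called, the 2 largest rises and falls, except for genes that are not reported here. Genes outside the table, proteins, chromatin and methylation were not analysed here.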

Additional observations from a re-analysis of the deposited data

Results flagged for a closer look

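NRG1 was at least 2-fold higher in piPSCs than in the PEFs of the same line in lines 5 and 7 and at least 2-fold lower in line 8. The log2 ratio of (FPKM + 1) was 1.52 in line 5, 2.93 in line 7 and -3.76 in line 8. Each ratio compares 1 library with 1, and the difference between lines was not tested. Line 8 is also the line with fragments of DDX3Y, and whether this bears on NRG1 was not tested. No receptor and none of the other EGF-family ligands in the table had ratios of 2-fold or more in opposite directions. With 3 libraries a group, no test for single outlying libraries was made.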

How the results depend on the processing

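EGFR, EREG, AREG, HBEGF and ERRFI1 were called lower in 80 of 80 alternative fits, 16 for each gene. No receptor, ligand or ERRFI1 was called higher as reported, but 1 was under 7 alternatives, and the number was 0 to 1 when single libraries were left out. This was ERBB4 without the trend (1.16), with a pseudocount of 0.1 (3.42), with quantile normalization (1.21), with equal sums (1.86), with voom (6.40) and without piPSC7 (1.61), and NRG1 for lines 5 and 7 only (2.22). The difference of NRG1, 0.23 as reported, was -0.28 with a pseudocount of 0.1, -0.21 with equal sums, -0.24 with voom, and -0.59 to 1.44 when single libraries were left out. The cause was not tested. The 5 pathway genes called higher became 3 with rescaling to the median ratio and 8 with voom, and 4 to 7 when single libraries were left out, where the lower genes numbered 19 to 23. With FPKM + 1 in place of FPKM, the difference of the EGFR share was -44.5 rather than -57.0 percentage points, and the difference of the ERBB3 share was 5.76 rather than 1.04, since 1 FPKM is added to each receptor; leaving out single libraries gave -62.5 to -51.0 and 0.57 to 1.91. Rescaling moved the median of all tested genes from 0.20 to -0.01 (median ratio) or -0.06 (equal sums), and the share of higher genes among all called genes from 54.8% to 42.6% or 41.4%. The 2505 higher and 2070 lower genes were 2217 to 2641 and 1836 to 2075 when single libraries were left out, and 2914 and 2229 with voom. The replicate block ended the call of SPRED1 and of the marker CLDN6 and changed no other call of a named gene. Depth limits ERBB3, with 9 to 61 fragments, and TGFA, with at most 1.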
